A study of Mus musculus with 4 samples.

Results

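The genes described here encode the cell-surface receptors that have been reported to bind or sense serum amyloid A (SAA), together with the adaptor Myd88. They were taken from the deposited table by gene symbol, and all 10 listed symbols matched 1 row each out of 23356. They are the Toll-like receptor genes Tlr1, Tlr2, Tlr4 and Tlr6, the formyl peptide receptor Fpr2, the ATP-gated channel P2rx7, the class B scavenger receptors Scarb1 and Cd36, the receptor for advanced glycation end products Ager, and Myd88. The series sequenced RNA from T helper 17 (Th17) cells, CD4 T cells that make IL-17 cytokines, grown in culture for 48 h. The cells came from wild-type C57BL/6 mice aged 6 to 8 weeks. Of the 4 libraries, 2 came from cells without SAA (titled veh, labelled as untreated, and called vehicle here) and 2 from cells given recombinant mouse SAA1 at a labelled dose of 2 ng/ml. No label says whether the 2 libraries of a group came from separate mice or cultures, so the p-values may measure technical spread only.

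SAA proteins are acute-phase proteins carried on high-density lipoprotein, and they also act on immune cells. TLR2 works as a pair with TLR1 or TLR6 and senses lipopeptides, whereas TLR4 works with the accessory protein MD-2 and senses lipopolysaccharide. These receptors recruit MyD88 through a shared intracellular domain, which leads to IRAK kinases, TRAF6 and NF-kB. FPR2 is a G protein-coupled chemoattractant receptor, P2X7 is an ion channel opened by extracellular ATP, SR-BI (from Scarb1) and CD36 take up lipids and lipoproteins, and RAGE (from Ager) binds S100 proteins and HMGB1.

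Transcripts of the adaptor and of the lipoprotein receptor SR-BI were abundant in both groups, those of the Toll-like receptors, P2X7 and RAGE were below 3 FPKM, and Cd36 and Fpr2 were listed at 0. FPKM divides fragments by transcript length and by the mapped total, which puts genes on a per-length scale. Levels of genes that share sequence with other genes, such as Tlr1, Tlr6 and Fpr2, compare less well. The authors' deposited table holds a single Cuffdiff value per group, so the spread between libraries cannot be shown. Of the 10 genes, 7 were tested by the authors and 3 (Tlr4, Fpr2 and Cd36) were not. By the q-value (the p adjusted over all tested genes) of the authors' deposited table, 0 of the 7 were called at q under 0.05, against 6.52% of all 11481 tested genes (456 higher and 293 lower with SAA1). At an unadjusted p under 0.05, 2 of the 7 passed, P2rx7 and Tlr1, both lower with SAA1, against 15.8% of all tested genes. The smallest p that the authors' Cuffdiff test gave was 5e-05, for 300 tested genes, and each of these has q = 0.0019. That q is the lowest deposited, so genes that hold it are not ranked by it.

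**Figure D1:**
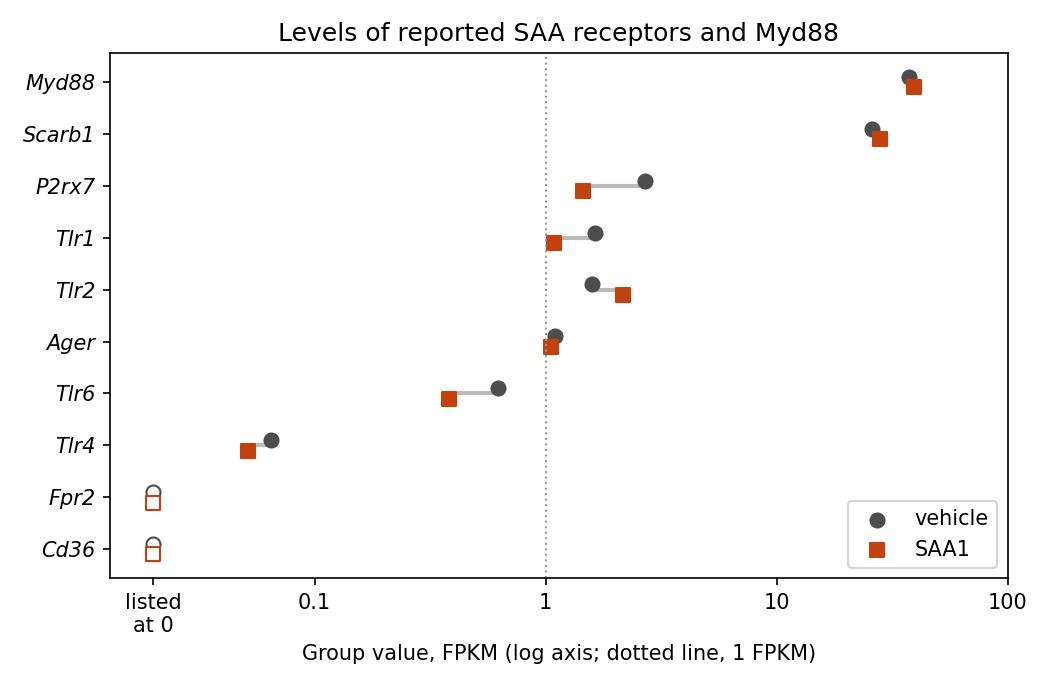
Group values in FPKM on a log axis for the 10 genes, with vehicle as grey circles and SAA1 as orange squares; open symbols mark genes listed at 0, and there are no error bars because each group has 1 value. Myd88 and Scarb1 lie between 26.0 and 39.5 FPKM, and the other 8 genes lie below 3 FPKM in both groups.

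The cells carried T cell and Th17 transcripts. Of 11 T cell markers, all were tested and above 1 FPKM, led by Cd5 (443 FPKM with vehicle and 406 with SAA1), Lat (316 and 308), Lck (303 and 304), Cd3g (180.2 and 167) and Cd2 (169 and 193). In that list Thy1 was called higher (66.0 and 96.8 FPKM, q = 0.0019 in the authors' deposited table) and Cd3e lower (39.1 and 28.2 FPKM, q = 0.039 in the authors' deposited table). With p taken from the deposited statistic as a two-sided normal deviate and adjusted again, neither was called (adjusted p 0.18 and 0.47). Of 7 Th17 markers, 6 were called higher with SAA1 in the authors' deposited table, and Il1r1 was not. The cytokine genes Il17a (56.0 and 568 FPKM) and Il17f (145 and 898) rose most in FPKM, and Ccr6 (15.8 and 40.6), Il23r (7.32 and 10.5) and Ahr (3.58 and 11.5) rose with them. With the normal p Il23r was no longer called (adjusted p 0.44), and Il17a, Il17f, Ccr6 and Ahr were. The 12 measured markers of monocytes, macrophages and neutrophils, cells rich in several of these receptors, summed to 2.02 FPKM with vehicle and 1.41 FPKM with SAA1. Of that list only Cd68 exceeded 1 FPKM (1.58 and 1.05), and C1qa, C1qb and S100a9 were listed at 0 in both groups. The 6 dendritic cell markers summed to 0.738 and 0.827 FPKM and the 5 B cell markers to 2.01 and 1.53 FPKM. Among endothelial, platelet and erythroid markers Pecam1, which T cells also carry, was at 4.36 and 3.77 FPKM, and Cdh5 was listed at 0. In bulk RNA, fewer cells carrying a transcript and less of it per cell cannot be told apart. The part of other cell types in the levels of the members was not tested.

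Among the Toll-like receptors, Tlr2 pointed up and its partners pointed down, and none of these differences passed the test. Tlr2, the common partner of the lipopeptide-sensing pairs, was at 1.59 FPKM with vehicle and 2.16 FPKM with SAA1. Its log2 ratio was 0.44 ± 0.32 (SE implied by the authors' test statistic), with a 95% interval from 0.874-fold to 2.11-fold and q = 0.34 in the authors' deposited table. Tlr1 was at 1.63 and 1.09 FPKM, a log2 ratio of -0.58 ± 0.36. Its unadjusted p of 0.025 became q = 0.21 in the authors' deposited table. Tlr6 was at 0.624 and 0.382 FPKM, a log2 ratio of -0.71 ± 0.55 (q = 0.39 in the authors' deposited table). With vehicle Tlr1 and Tlr2 were level, with Tlr2 at 0.975 times Tlr1, and with SAA1 Tlr2 was at 1.98 times Tlr1. Whether the response of Tlr2 differs from those of Tlr1 and Tlr6 was not tested. Tlr4, the lipopolysaccharide receptor, was at 0.0650 and 0.0516 FPKM and was not tested by the authors. Tlr2 exceeded it 24.5-fold with vehicle and 41.9-fold with SAA1. These ratios are imprecise, since Tlr4 rested on about 9 and 8 fragments, as estimated below. Whether the ratios differ between the groups was not tested. In mm10, Tlr2 lies on chromosome 3 from 83836272 to 83841608 and Tlr4 on chromosome 4 from 66827811 to 66842796.

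**Figure D2:**
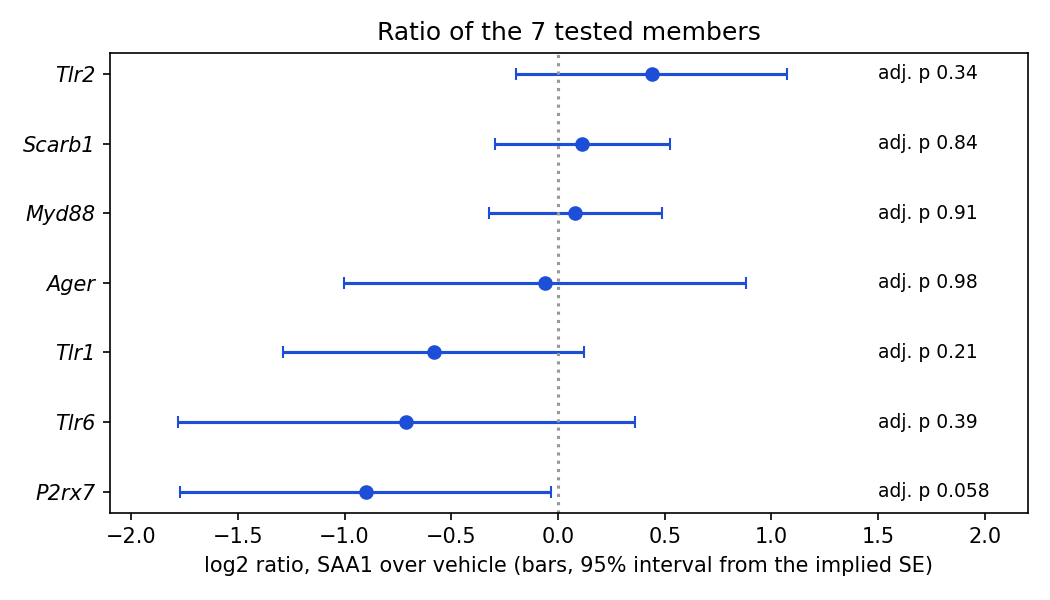
The log2 ratio of SAA1 over vehicle for the 7 tested genes, with bars for the 95% interval from the implied standard error and the adjusted p from the deposited table at the right. P2rx7 is the lowest at -0.90 and Tlr2 the highest at 0.44, and the interval of P2rx7 alone lies on a single side of 0.

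Tlr1 and Tlr6 are neighbours on chromosome 5 of mm10 (64924680 to 64933558 and 64953095 to 64960034), both on the minus strand, and they share stretches of sequence. Windows of 50 bases were compared with every GENCODE M21 transcript of other genes, and 15.3% of the windows of the longest Tlr1 transcript and 12.6% of those of Tlr6 were also found elsewhere, nearly all in each other. Reads that lie wholly inside these stretches cannot be assigned to either gene by sequence. The longest run that both transcripts share has 229 bases and lies within the reading frame of each, in the last exon. In Tlr1 it is chr5:64925537-64925765 and in Tlr6 chr5:64953828-64954056. It is shown because a read that falls inside it fits both genes, and it is given in lower case throughout since every base is the same.
Tlr1 and Tlr6 shared run: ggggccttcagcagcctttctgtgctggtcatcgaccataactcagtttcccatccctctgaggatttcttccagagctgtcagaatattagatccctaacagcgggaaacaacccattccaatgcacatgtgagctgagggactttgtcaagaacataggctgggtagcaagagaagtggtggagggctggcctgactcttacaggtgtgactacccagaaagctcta
The 60 bases that follow it (chr5:64925477-64925536 in Tlr1 and chr5:64953768-64953827 in Tlr6) differ at 2 positions, in capitals, and are shown because only such bases tell the 2 genes apart there. Sequences were read from the GENCODE M21 transcripts.
Tlr1, next bases: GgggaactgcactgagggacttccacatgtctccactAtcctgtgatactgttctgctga
Tlr6, next bases: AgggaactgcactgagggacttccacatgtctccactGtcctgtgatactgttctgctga

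**Figure D3:**
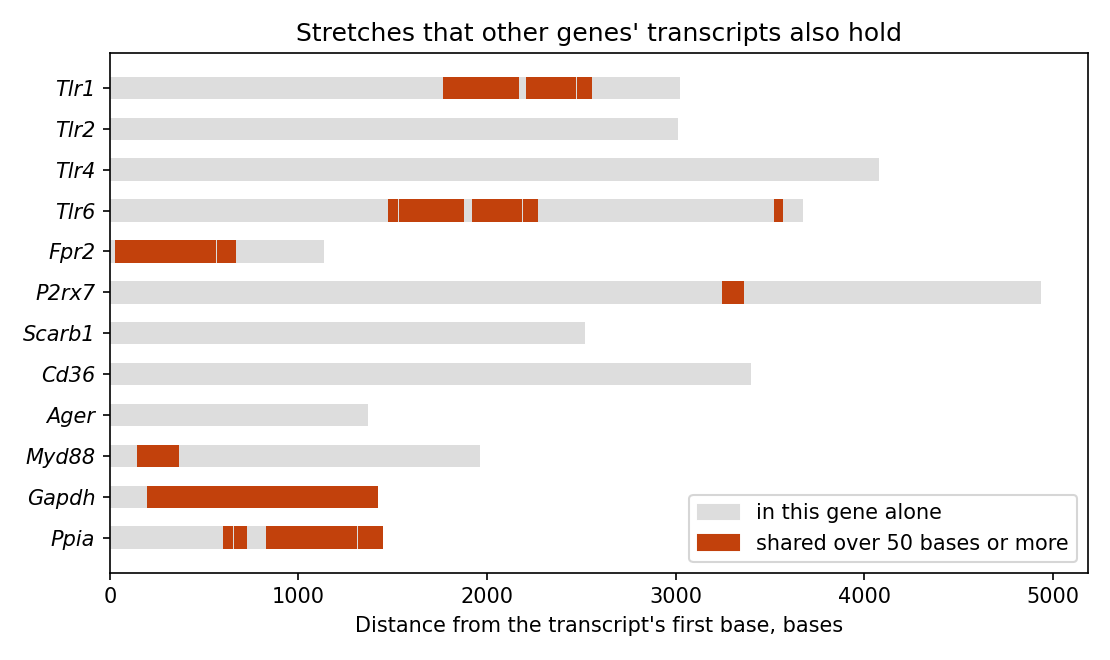
The longest coding transcript of each of the 10 genes and of Gapdh and Ppia, drawn in grey from its first base, with orange over stretches that transcripts of another gene also hold over 50 bases or more. Tlr2, Tlr4, Scarb1, Cd36 and Ager hold no orange, Tlr1 and Tlr6 hold a cluster of it each, Tlr6 also holds a short stretch near its end, and Gapdh is mostly orange.

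P2rx7 had the largest difference of the 7 tested genes and came closest to the threshold. It encodes P2X7, which on T cells opens in response to ATP. Its level was 2.70 FPKM with vehicle and 1.45 FPKM with SAA1, 1.87-fold lower, with a log2 ratio of -0.90 ± 0.44 and a 95% interval from 0.293-fold to 0.977-fold. Its unadjusted p of 0.0042 stood beside q = 0.058 in the authors' deposited table. At a looser threshold of 0.1 it was the single member called, against 8.81% of all tested genes, and of all tested genes 1.88% had a lower ratio. When p was taken instead from the statistic as a two-sided normal deviate, its adjusted p was 0.55. The gene spans chromosome 5 from 122643911 to 122691432 of mm10 and has 5 coding transcripts in GENCODE M21.

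The class B scavenger receptors stood at opposite ends of the scale. Scarb1, whose product SR-BI is the main receptor for high-density lipoprotein, was at 26.0 FPKM with vehicle and 28.2 FPKM with SAA1. Its log2 ratio was 0.11 ± 0.21, with a 95% interval from 0.814-fold to 1.44-fold and q = 0.84 in the authors' deposited table. It was the most abundant receptor of the set, 16.3 times Tlr2 with vehicle, and likewise above every other receptor with SAA1. Cd36, the fatty acid and oxidised lipoprotein receptor, was listed at 0 in both groups. None of its 50-base windows occurs in another gene's transcripts. Both genes lie on chromosome 5 of mm10, Scarb1 from 125277087 to 125341094 and Cd36 from 17781690 to 17888959.

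The remaining receptors were RAGE and FPR2. Ager was at 1.10 and 1.05 FPKM, a log2 ratio of -0.06 ± 0.48, and the interval from 0.499-fold to 1.84-fold is wide enough to hold a 1.5-fold change either way (q = 0.98 in the authors' deposited table). Fpr2 was listed at 0 in both groups. Of its 50-base windows, 37.2% also occur in other transcripts, among them those of the related genes Fpr3 and Fpr1. Both receptors lie on chromosome 17 of mm10, Ager from 34597850 to 34600937 and Fpr2 from 17887824 to 17893952. Of the 6 other measured genes of the formyl peptide receptor list, 3 were listed at 0 in both groups, and the highest, Fpr-rs3, was at 0.0403 FPKM with vehicle and listed at 0 with SAA1. Fpr1 was at 0.0279 FPKM with vehicle and listed at 0 with SAA1, and Cmklr1 was at 0.0101 and 0.0189 FPKM. Low listed values were also seen for genes that every cell uses. Gapdh, a glycolytic enzyme, was listed at only 0.958 and 1.18 FPKM, with 82.5% of its windows found in other transcripts, and Ppia at 0.533 and 0.631 FPKM, with 38.8%. Hprt, in contrast, was at 318 and 257 FPKM, and Actb at 5921 and 5202 FPKM. Shared windows were not computed for Hprt or Actb, and whether shared sequence lowers a listed value was not tested.

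Myd88, the adaptor that the Toll-like receptors and the IL-1 and IL-18 receptors share, was the most abundant of the 10 genes, at 37.4 and 39.5 FPKM. Its log2 ratio was 0.08 ± 0.21, and the 95% interval, from -0.32 to 0.49 on the log2 scale, does not reach a 1.5-fold change in either direction (q = 0.91 in the authors' deposited table). The gene lies on chromosome 9 of mm10 from 119335988 to 119340040. Its level exceeded that of 75.3% of tested genes with vehicle and 76.8% with SAA1. In GENCODE M21 its exons overlap those of Acaa1a on the opposite strand over 14.3% of their bases. The deposited rows of Myd88 and Acaa1a do not overlap, since that of Acaa1a starts at 119341294. Unless counting used strand, on which the labels are silent, reads from the stretch could come from either gene. Acaa1a, a peroxisomal thiolase, was at 21.5 and 28.0 FPKM.

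The order of levels with vehicle was Myd88, Scarb1, P2rx7, Tlr1, Tlr2, Ager, Tlr6 and Tlr4, followed by Cd36 and Fpr2 at 0. With SAA1, Tlr2 stood above P2rx7 and Tlr1, directly after Scarb1, and the other places kept their order. Scarb1 was 9.63 times the next receptor, P2rx7, with vehicle. With no value per library, whether neighbours in this order differ beyond their spread could not be tested. Among tested genes, Scarb1 exceeded 66.5% with vehicle, whereas P2rx7 exceeded 19.2%, Tlr1 13.4%, Tlr2 13.2%, Ager 9.80% and Tlr6 4.80%.

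The lowest values of the table allow an estimate of the fragments behind these levels. FPKM multiplied by transcript length was taken over genes with a single coding transcript of at least 2000 bases. It piled up at 0.0289 with vehicle (229 genes) and 0.0259 with SAA1 (243 genes). A window set in advance above each pile had medians at 1.90 and 1.99 times that value, which the window itself largely fixed. The window between them held 19 and 22 genes, but it is narrower and overlaps both. Whether the steps at 0.0289 and 0.0259 are worth 1 fragment was not tested. Read as the worth of 1 fragment, these steps put about 462 and 275 fragments on P2rx7, 171 and 127 on Tlr1, 166 and 251 on Tlr2, 80 and 54 on Tlr6, and 52 and 56 on Ager. Myd88 and Scarb1 rested on about 2000 fragments or more in each group, and Tlr4 on about 9 and 8. These are estimates from the longest transcript, not counts. For Cd36, 3 fragments would be worth about 0.0255 FPKM with vehicle and 0.0229 FPKM with SAA1, and for Fpr2 0.0764 and 0.0686 FPKM, which covers counting error only. Counting error alone would give P2rx7 a standard error of 0.11 on the log2 scale, against the 0.44 implied by the authors' statistic, and Tlr1 0.17 against 0.36.

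**Figure D4:**
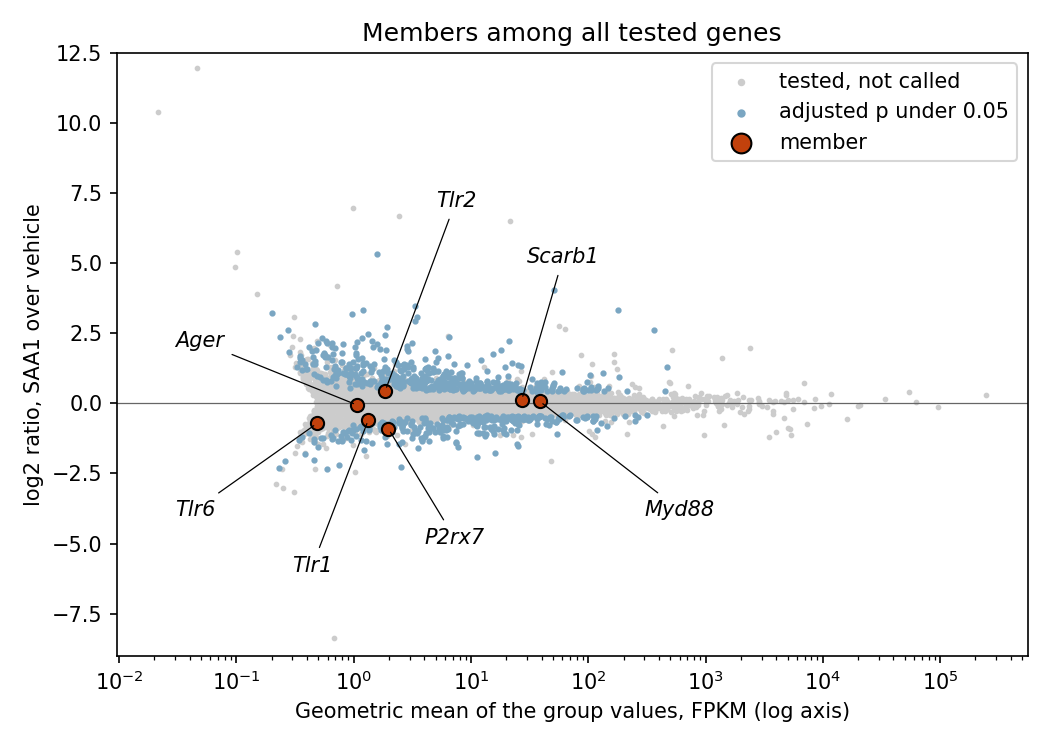
Each point is a tested gene, by the geometric mean of its group values (FPKM, log axis) and its log2 ratio of SAA1 over vehicle, with the genes called by the authors' deposited table in blue and the 7 tested members in orange; 78 genes listed at 0 in a group are left out. The 7 members lie between -0.90 and 0.44, and none was called.

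Over the 7 tested members the median log2 ratio was -0.06, with 3 ratios above and 4 below 1, beside a median of -0.02 over all tested genes. The implied standard errors ran from 0.21 for Myd88 to 0.55 for Tlr6, against a median of 0.22 over all tested genes, so the low members were measured less precisely than the typical gene.

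The genes around the members were described through 12 lists of 139 genes, of which 133 are in the table and 78 were tested. By the authors' Cuffdiff test, 5 were called higher and 1 lower with SAA1, which is 7.69% of those tested, close to the 6.52% of all tested genes. The median log2 ratio of those above 1 FPKM was -0.01.

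Other receptors of the Toll-like family were scarcely present, while the proteins that fold and carry them were. All 8 other Toll-like receptors were below 1 FPKM and not tested, the highest being Tlr7, an endosomal sensor of single-stranded RNA, at 0.325 and 0.273 FPKM. Tlr12 was at 0.0545 and 0.0499 FPKM, and Tlr11 and Tlr9 were lower still. The authors' Cuffdiff test called 1 of 5 tested accessory genes. Unc93b1, which carries the endosomal Toll-like receptors out of the endoplasmic reticulum, rose from 2.76 to 6.79 FPKM (2.46-fold, log2 ratio 1.30 ± 0.28, q = 0.0019 in the authors' deposited table). Hsp90b1, a chaperone of Toll-like receptors, was at 279 and 253 FPKM, Cnpy4 at 17.8 and 19.3 FPKM and Cnpy3 at 17.4 and 16.7 FPKM. Ly96, which encodes the TLR4 partner MD-2, was at 2.02 and 1.73 FPKM, and Cd14, the lipopolysaccharide co-receptor, at 0.169 and 0.229 FPKM.

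The shares of all tested genes to set beside the counts that follow are 6.52% called and 15.8% with an unadjusted p under 0.05, and lists of this size with 0 calls are near that background. Of 20 adaptors and kinases 18 were tested. Of these, 0 passed the authors' adjusted test and 1, Traf6, had an unadjusted p under 0.05. Traf6, the ubiquitin ligase that MyD88 and the IRAK kinases engage, was at 24.8 FPKM with SAA1, 1.24 times its vehicle level (q = 0.21 in the authors' deposited table). Map3k8 was at 52.2 and 48.4 FPKM, Chuk at 49.7 and 48.7, Peli1 at 41.9 and 41.7, and Map3k7, the kinase TAK1, at 37.5 and 36.7. Tirap, which bridges TLR2 and TLR4 to MyD88, was lower, at 1.91 and 2.08 FPKM. Of 10 tested inhibitors of the pathway, 0 were called by the authors' Cuffdiff test and 1 had an unadjusted p under 0.05. Sigirr was at 52.2 and 53.3 FPKM, Usp4 at 51.7 and 49.7, Tnfaip3 at 45.5 and 39.6 and Tnip1 at 31.8 and 34.9.

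The 5 genes listed as other receptors that use MyD88 were all above 5 FPKM, higher than each Toll-like receptor. Il1rl1, whose product also uses MyD88, was placed in the list of inhibitors instead. It was at 0.301 and 0.312 FPKM and was not tested by the authors. Il1r1 was at 12.7 FPKM with vehicle and 1.11 times that with SAA1. Il1rap was at 7.75 and 6.34 FPKM, Il18rap at 6.70 and 5.70, and Il1rl2 at 6.34 and 5.17. Of the 5 tested, 0 were called by the authors' Cuffdiff test and 0 had an unadjusted p under 0.05. Among 16 tested NF-kB targets, 0 were called by the same test and 3 had an unadjusted p under 0.05. Nfkbia was at 354 and 355 FPKM, Nfkb1 at 156 and 178, Nfkb2 at 143 and 146, and Tnf at 128 and 128.

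**Figure D5:**
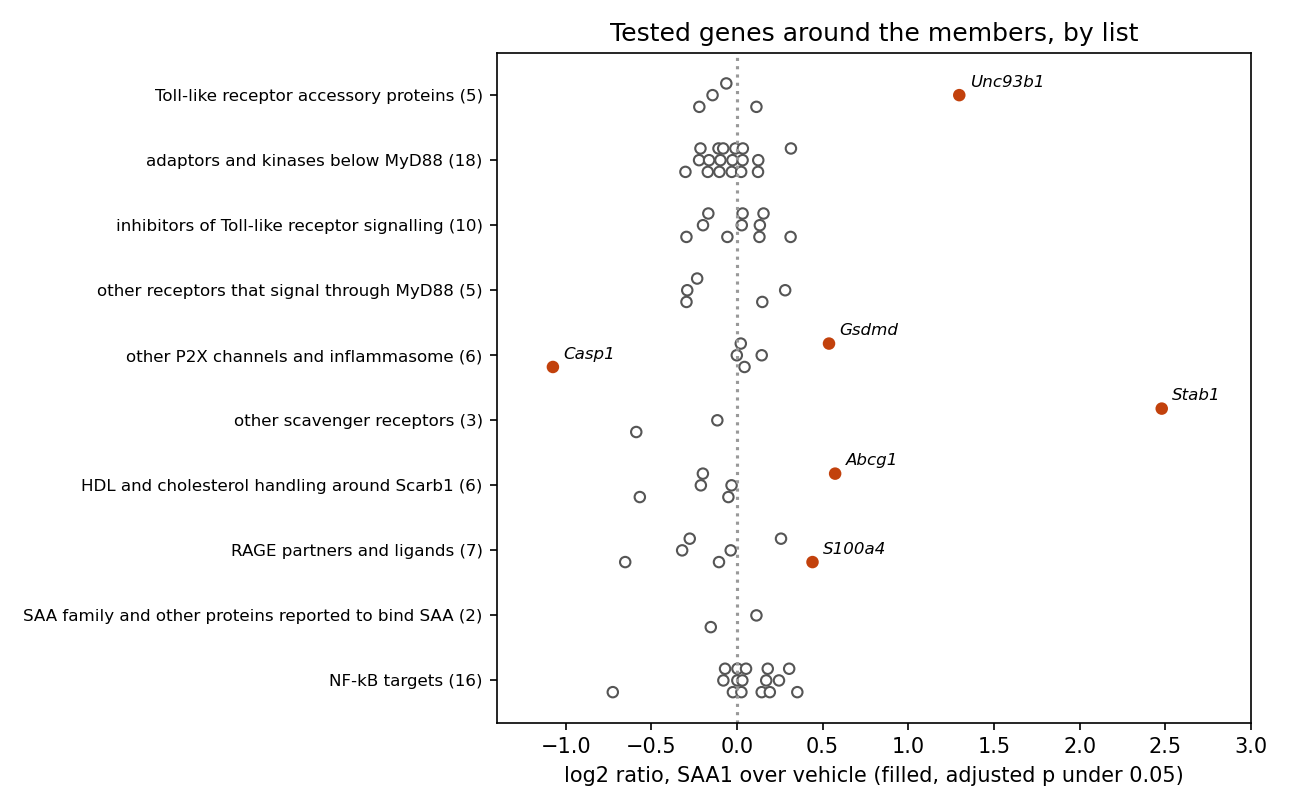
The log2 ratio of SAA1 over vehicle for each tested gene around the members, by list, with the number tested in brackets and filled points for genes called by the authors' deposited table. Unc93b1, Stab1, Gsdmd, Abcg1 and S100a4 are filled to the right of 0 and Casp1 to the left, and the lists of adaptors and of NF-kB targets hold no filled point.

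Around P2X7, 1 of 6 tested genes was called higher and 1 lower with SAA1. Casp1, the protease that the inflammasome activates, fell from 19.4 to 9.21 FPKM (log2 ratio -1.07 ± 0.24, q = 0.0019 in the authors' deposited table). Gsdmd, the pore-forming protein that caspase-1 cleaves, rose from 9.92 to 14.4 FPKM (log2 ratio 0.54 ± 0.23, q = 0.022 in the authors' deposited table). The call of Gsdmd was lost with the normal p (adjusted p 0.37) and at a threshold of 0.01. The other 4 tested genes were not called, among them Nek7 at 53.6 and 55.2 FPKM and the channel gene Panx1 at 31.7 and 31.6 FPKM. Nlrp3, the sensor that P2X7 is known to trigger in macrophages, was at 0.0121 FPKM with vehicle and listed at 0 with SAA1. P2rx4, the neighbour of P2rx7 and a related channel, was at 6.22 and 6.87 FPKM (q = 0.82 in the authors' deposited table), above P2rx7 in both groups.

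Among 3 tested scavenger receptors beside Scarb1 and Cd36, 1 was called in the authors' deposited table. Stab1, the endocytic receptor stabilin-1, rose from 0.566 to 3.15 FPKM (5.58-fold, log2 ratio 2.48 ± 0.33, q = 0.0019 in the authors' deposited table), and its row overlaps another gene row. Scarb2, a lysosomal member of the SR-BI family, was at 33.4 and 30.8 FPKM, Cd68 at 1.58 and 1.05, and Cxcl16 at 0.411 and 0.376. Lipoprotein and cholesterol handling held 1 call among 6 tested genes. Abcg1, which exports cholesterol to high-density lipoprotein, rose from 4.99 to 7.42 FPKM (log2 ratio 0.57 ± 0.22, q = 0.0047 in the authors' deposited table). Its call was lost with the normal p (adjusted p 0.22). Abca1 was at 5.14 and 5.03 FPKM, and Apoe at 2.44 and 2.36. Pdzk1, which stabilises SR-BI in liver, was 1.48-fold lower with SAA1, from 2.07 FPKM with vehicle (q = 0.18 in the authors' deposited table).

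Of 7 tested RAGE partners and ligands, 1 was called in the authors' deposited table. S100a4, a calcium-binding RAGE ligand, rose from 182 to 248 FPKM (log2 ratio 0.44 ± 0.21, q = 0.036 in the authors' deposited table). The call of S100a4 was lost with the normal p (adjusted p 0.49) and at a threshold of 0.01. S100a6 was at 414 and 331 FPKM, Hmgb2 at 29.7 and 27.6, and Hmgb1 at 15.6 and 15.2. Transcripts of SAA itself were near 0, with Saa1 and Saa2 listed at 0 in both groups and Saa3 at 0.0640 and 0.0647 FPKM. Vimp, the gene of selenoprotein S, also proposed as an SAA-binding protein, was at 82.2 and 73.9 FPKM and Cst3, the gene of cystatin C, at 63.6 and 68.8 FPKM, and neither was called.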

How the data were processed

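RNA of 4 libraries of cultured Th17 cells, 2 per group, was grouped by the sample titles. TopHat2 and Cuffdiff, without versions, and the builds mm9 and mm10 are named in the submitters' processing notes. Scaling, filters and use of strand: not given in the sources used here. Deposited FPKM values are 1 per group, given by the authors in columns named as Cuffdiff names them, per the file headers. The deposited test statistic is a score, read here as the log ratio over its standard error. The deposited p-value and q-value are the authors', and the q-value is the Benjamini-Hochberg adjustment over 11481 tested rows. A gene was called at an adjusted p under 0.05.

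With Python 3.11.15, pandas 2.3.3, numpy 2.4.6 and scipy 1.17.1, the log2 ratio was recomputed from FPKM and its standard error taken as that ratio over the deposited statistic. Intervals are the ratio ± 1.96 standard errors. They rest on a normal approximation, which gives larger p-values than those deposited (0.11 against 0.025 for Tlr1), so the intervals are wide beside the deposited p. Read depth is not known, and fragment numbers are estimates from the steps among low values. The way of finding the step was tried only on simulated counts whose transcript lengths were known exactly. Errors from wrong lengths, several transcripts or shared reads were therefore not tested. Transcripts and exons are from GENCODE M21 (GRCm38, mm10), and starts are counted from 1.

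The members and lists were chosen with earlier results of these data known. Named genes are the members, every called gene of each list, and the most abundant genes of the list up to 4 names; some genes that this rule names are not reported here. Gapdh, Ppia, Hprt, Actb, Acaa1a, Ly96, Cd14, Traf6, Tirap, P2rx4, Nlrp3, Pdzk1 and the genes of the closing section were named after their values were seen. Alternatives were other thresholds, other adjustments, a normal p of the statistic, other pseudocounts and centring. A limma or count test foreseen for values per library could not be run.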

Additional observations from a re-analysis of the deposited data

How the results depend on the processing

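No paired analysis was possible because the table gives 1 value per group and none per library, and for the same reason no replicate could be left out and the alternatives for counts were not run. The number of members called was 0 at a threshold of 0.01, with adjustment over expressed genes, with the normal p and without rows that overlap another row, and 1 (P2rx7) at a threshold of 0.1. Over the settings that recompute the adjusted p, that of P2rx7 ran from 0.052 to 0.55 and that of Tlr1 from 0.18 to 0.88. Over all tested genes the 749 calls became 436 at a threshold of 0.01 and 245 with the normal p of the statistic. The 6 calls in the lists became 3 with the normal p, without Abcg1, Gsdmd and S100a4; the cause was not tested. In 54 other comparisons of a single member with an alternative, the side of the threshold was the same or the log2 ratio moved by less than its standard error. Many of these outcomes were fixed in advance, so the tally is no support for the results. A gene not called at 0.05 cannot be called at 0.01. No log2 ratio changed sign, but the same pseudocount added to both groups cannot change a sign. The median of the tested members was -0.03 with a pseudocount of 1.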

Other observations

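Other genes of extracellular nucleotide signalling, with proteins reported to work beside P2X7, were looked up after the values of P2rx7 had been seen, so their choice is not independent of these data. Of 17 such genes 12 were tested, and by the authors' Cuffdiff test 2 were higher with SAA1, 1 was lower and 9 were not called, beside 6.52% called of all tested genes. Because the genes were chosen with values known, nothing is read from that share. P2ry1, a receptor for ADP, fell from 8.91 to 3.79 FPKM (log2 ratio -1.23 ± 0.24, adjusted p 0.0019 in the authors' deposited table). Nt5e, the enzyme CD73 that makes adenosine from AMP, rose from 0.795 to 4.30 FPKM (log2 ratio 2.44 ± 0.32, adjusted p 0.0019 in the same table). Cd38, an enzyme that consumes NAD, rose from 0.672 to 1.61 FPKM (log2 ratio 1.26 ± 0.41, adjusted p 0.0071 in the same table), a call lost with the normal p of the statistic (adjusted p 0.085). Art2b, whose product opens P2X7 on mouse T cells by ADP-ribosylation, was at 0.456 and 0.569 FPKM, and Entpd1, which degrades ATP, at 0.282 and 0.391 FPKM. Adora2a, an adenosine receptor, was at 45.6 and 46.4 FPKM.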
